A study of Papilio xuthus with 16 samples.

Results

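The yellow gene family was followed across the larval markings of the swallowtail butterfly Papilio xuthus. Its 6 members here were yellow (Px-0108), yellow-h3 (Px-0430), yellow-h2 (Px-0429), yellow-e (Px-0200), yellow-f4 (Px-0903) and yellow-f3 (Px-4077). They were taken by gene number, with every probe whose name carries the sequence identifier of that gene, and they make up 6 of the 3380 P. xuthus sequences and 27 of the 8697 P. xuthus probes on the microarray. The number of probes was 9 for yellow, 6 for yellow-e, 5 for yellow-f3, 3 for yellow-h3, and 2 each for yellow-h2 and yellow-f4. The identifiers of yellow-h2, yellow-h3, yellow-f3 and yellow-f4 were read from a gene tree of the study.

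Young larvae of this species look like bird droppings, with black and white areas (the mimetic pattern), and the last larval stage is green with black eyespots on the thorax and V-shaped marks on the abdomen (the cryptic pattern). Pieces of epidermis were compared on 16 Agilent arrays with 2 dyes. The mimetic arrays set black (Cy5) against white (Cy3) epidermis during the molt that ends the third instar, at the intermolt (day 2 of the instar by the protocol in the labels) and 0, 4, 8, 11 and 16 h after head capsule slippage, the moment at which the old head capsule loosens. The cryptic arrays belong to the molt that ends the fourth instar, at the intermolt (also day 2) and 1, 4, 10 and 13 h after head capsule slippage, with 5 arrays of eyespot (Cy5) against thoracic green (Cy3) epidermis and 5 of V-shaped (Cy5) against abdominal green (Cy3) epidermis. The titles of these 10 arrays carry the word mimetic, and region and stage were taken from the tissue and age labels instead. No treatment, strain or mutation separates these groups. Each stage of a comparison has 1 array and the dyes were never swapped, so dye and marking cannot be told apart. The stages stand in for replicates, so the spread and the p-values below measure variation between stages and arrays. The 2 slides held 8 arrays each, with the mimetic 8 and 11 h and the cryptic 4, 10 and 13 h arrays on slide 1 and all others on slide 2, so stage and slide cannot be told apart either.

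Proteins of the yellow family are secreted and share a fold with the major royal jelly proteins of honey bees. In Drosophila melanogaster, yellow is needed for black melanin in the cuticle, and mutants without it are yellowish. Melanin is laid down in insect cuticle around each molt from dopa and dopamine made by the epidermal cells, so the genes concerned are used in short windows of the molt.

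Between 78.0% and 88.5% of the P. xuthus probes were well above background in a sample by the scanner software's own test. The 75th percentile of the processed signal lay between 2590 and 4720, and no probe of a member was saturated. The 4 cuticular protein genes used as epidermal markers were well above background in 25 to 32 of the 32 samples. The 11 muscle genes looked at were well above background in 31 or 32 samples, so RNA of muscle, which lies under the epidermis, was measured in the pieces as well. In such pieces, fewer cells of a type and less RNA per cell cannot be told apart.

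The contrast between yellow-h3 and yellow-h2 carries the main result, and 3 of their 60-base probes are printed, 5′ to 3′, as the study's probe table gives them. Capitals mark the longest run of bases that the probe shares with a probe of the other gene, which was 7, 6 and 7 bases in the order printed.
yellow-h2 probe 1: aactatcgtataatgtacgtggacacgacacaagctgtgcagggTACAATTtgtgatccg
yellow-h3 probe 3: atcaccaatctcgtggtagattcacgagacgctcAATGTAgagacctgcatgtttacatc
yellow-h3 probe 2: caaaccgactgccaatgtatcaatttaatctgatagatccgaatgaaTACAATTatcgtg
The runs in common were thus short. In the RefSeq gene table of Pxut_1.1, whose scaffolds are not named there, yellow-h2 and yellow-h3 follow each other with 0 genes between them, and so do yellow-f3 and yellow-f4.

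Across all comparisons the members did not move as one group. The signals of yellow and yellow-h3 were higher in the black markings, that of yellow-h2 was higher in green, and those of yellow-f3 and yellow-f4 were higher in green than in the eyespot and V-shaped marks, while yellow-e did not pass. In the cryptic pattern (eyespot and V-shaped arrays together), 5 of the 6 members passed an adjusted p of 0.05 in limma fitted across the 3380 sequences, where 10.6% of all sequences did. Of these members 2 were higher in the markings, as were 4.44% of all sequences, and 3 were lower, as were 6.15%. In the mimetic pattern 0 of the 6 passed with limma, where 2.13% of all sequences did, and 3 of the 6 had an unadjusted p under 0.05, as did 19.4% of all sequences. The median log2 ratio of the members was -0.00 in the mimetic and -0.69 in the cryptic pattern, against -0.02 and -0.03 over all sequences.

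**Figure D1:**
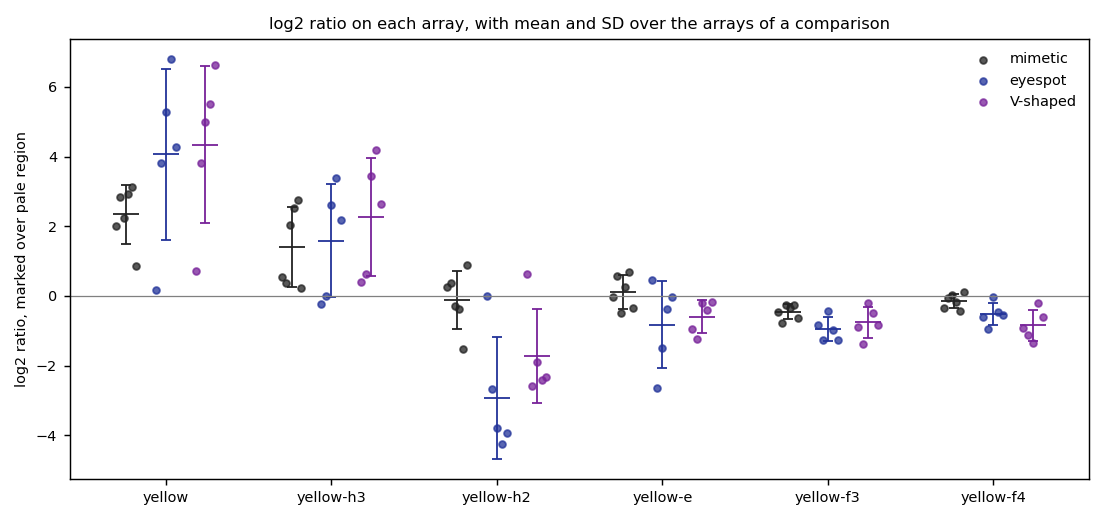
Log2 ratio of marking over pale epidermis for the 6 members, with a point for each array and the mean ± SD over the 6 mimetic, 5 eyespot and 5 V-shaped arrays. All points of yellow lie above 0, those of yellow-h3 lie above or near 0, and those of yellow-h2 reach down to -4.26 on the eyespot arrays.

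The first member, yellow, is the gene after which the family is named. In black mimetic epidermis its processed signal (background-subtracted, dye-normalized intensity, as the geometric mean over its probes) was 93.4 at the intermolt, 1990 at 0 h, 27500 at 4 h, 53000 at 8 h, 41800 at 11 h and 412 at 16 h, against 23.1, 276, 5850, 6990, 4750 and 225 in white epidermis at the same stages. The signal of black epidermis was the higher one on each of the 6 arrays. Averaged over probes, both regions had a maximum at 8 h and little signal before 0 h or at 16 h. The probes differed in the stage of the maximum. At 4, 8 and 11 h, probe 1 had 166000, 160000 and 203000 in black and 33700, 18100 and 22200 in white epidermis. Probe 6 had 3210, 131000 and 5340 in black and 706, 12200 and 764 in white epidermis. The mean log2 ratio of black over white was 2.34 ± 0.84 (SD, n = 6 arrays), a 5.05-fold difference, with a smallest ratio of 0.87 at 16 h and a largest of 3.13 at 11 h.

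On the eyespot arrays the yellow signal was 2150 at the intermolt, 2230 at 1 h, 56600 at 4 h, 37700 at 10 h and 9290 at 13 h in eyespot, against 1930, 160, 1450, 341 and 481 in thoracic green epidermis. In V-shaped epidermis it was 3450, 1780, 31000, 24200 and 5740 at these stages, against 2080, 126, 977, 532 and 57.9 in abdominal green epidermis. In the markings the signal thus peaked at 4 h, while both green regions had their highest signal at the intermolt. At that stage the regions differed little, by log2 ratios of 0.16 for eyespot and 0.73 for V-shaped. At every later stage the marking lay at least 3.80 above its green neighbour on the log2 scale over all probes. That lowest value was eyespot at 1 h, where the 6 probes well above background in both regions gave 3.65. The log2 ratio was largest at 10 h for eyespot, 6.79, where 8 of the 9 probes were well above background in both regions and gave 6.89. For V-shaped it was largest at 13 h, 6.63, but there only 2 of the 9 probes were well above background in abdominal green, so most of that ratio rests on bounds, and these 2 gave 6.49.

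The mean log2 ratio of yellow was 4.06 ± 2.46 for eyespot over thoracic green and 4.33 ± 2.26 for V-shaped over abdominal green (SD, n = 5 arrays each), and 4.20 ± 2.23 over the 10 cryptic arrays, 18.35-fold. Yellow was higher in the marking on 10 of 10 cryptic arrays (two-sided exact sign-flip p = 0.00195), the smallest that 10 arrays allow. In limma the cryptic difference had an adjusted p of 0.000654, and within slides its mean was 5.58 on slide 1 (6 arrays) and 2.13 on slide 2 (4 arrays).

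Of the members, 3 passed on the eyespot arrays (3.08% of all sequences) and 3 on the V-shaped arrays (1.48%), and yellow was among them in both, with limma's adjusted p at 0.0129 and 0.0151. The eyespot call was lost without the 10 h (adjusted p = 0.0608) or the 13 h eyespot array (0.0507), and the V-shaped call without the 4 h (0.0693) or the 10 h V-shaped array (0.0647) in the same limma fit. With 5 arrays an exact sign-flip test cannot go below 0.0625, the value yellow reached in both comparisons, and the same limit holds for the cryptic means of all members when the 2 arrays of a stage are averaged.

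In the mimetic pattern, the yellow difference had an adjusted p of 0.101 in limma, which did not pass, and an exact sign-flip p of 0.03125, the smallest that 6 arrays allow. Its mean was 3.03 on slide 1 (2 arrays) and 1.99 on slide 2 (4 arrays), and it passed in limma with the slide as a term (2.77, adjusted p = 0.0142). The 11 muscle genes were all lower in black than in white on average, with a median log2 ratio of -0.34 that ran from 0.60 at the intermolt to -1.12 at 11 h. None of them passed in limma, where 2.13% of all sequences did. Their summed signal ranged over 531000 to 943000 in black and over 524000 to 1840000 in white epidermis, and the part of muscle in the mimetic ratios was not tested.

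**Figure D2:**
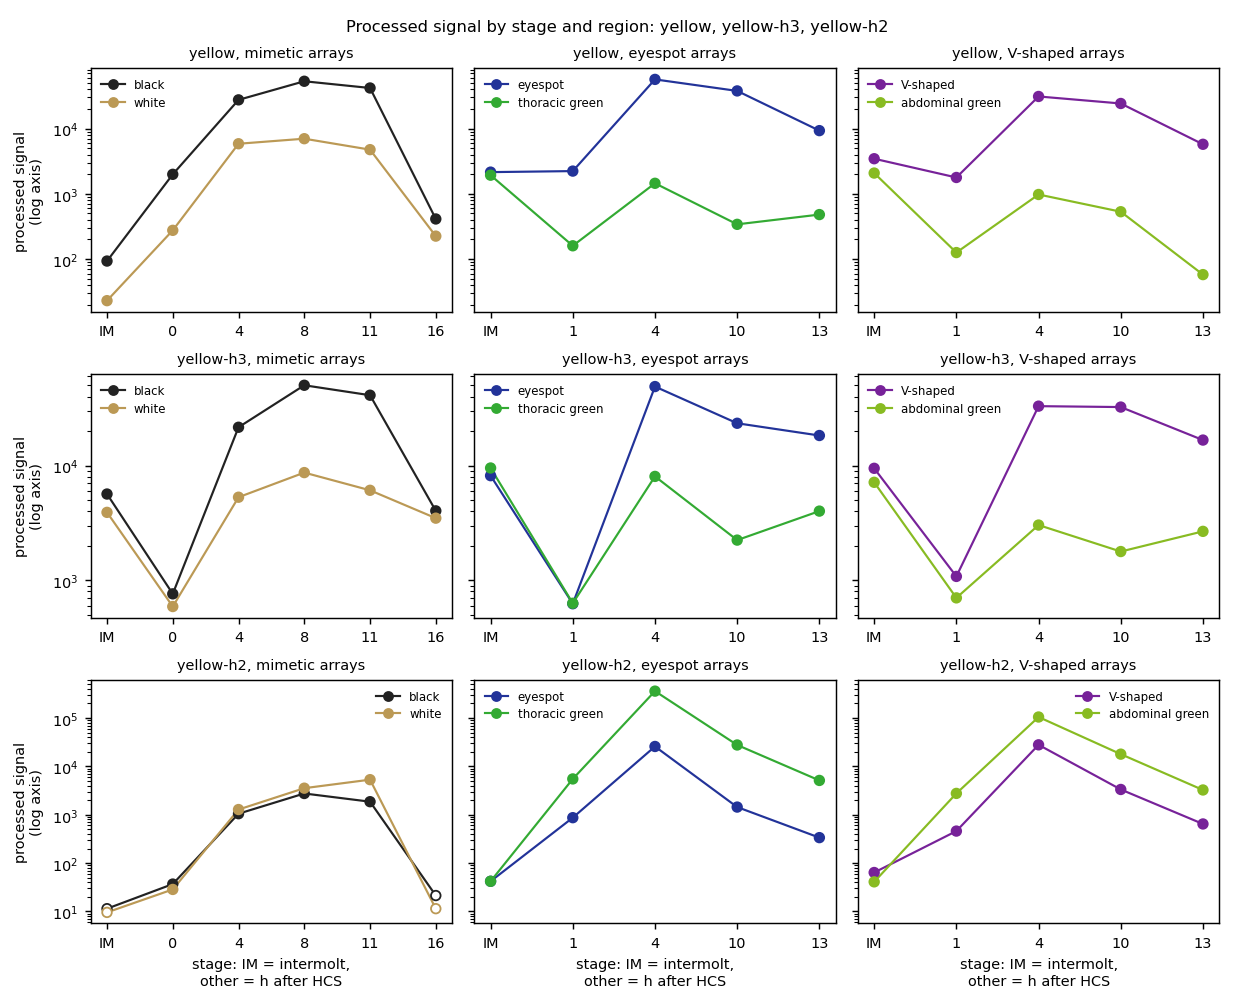
Processed signal (log10 axis) of yellow, yellow-h3 and yellow-h2 at each stage in the marking and in the pale region beside it, with 1 array a stage. Hollow points were not well above background. For yellow-h2 the green regions lie above the markings from 1 h on, with 360000 in thoracic green at 4 h, and for yellow-h3 the markings lie above the pale regions from 4 h on in all patterns except at 16 h of the mimetic molt, where the lines nearly meet.

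In yellow-h3, the markings stood furthest apart from the pale regions at 4 to 11 h of the mimetic molt and from 4 h on in the cryptic molt. In black epidermis its signal was 5650 at the intermolt, 761 at 0 h, 21600 at 4 h, 50200 at 8 h, 41100 at 11 h and 4030 at 16 h, against 3910, 590, 5300, 8690, 6090 and 3480 in white epidermis. The regions were within 1.44-fold of each other at the intermolt, 0 h and 16 h, and black was 4.07-fold higher at 4 h, 5.78-fold at 8 h and 6.75-fold at 11 h. Unlike yellow, the gene had a clear signal at the intermolt in both regions and its lowest signal at 0 h, when yellow had begun to climb.

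In eyespot epidermis the yellow-h3 signal was 8170 at the intermolt, 624 at 1 h, 48900 at 4 h, 23400 at 10 h and 18300 at 13 h, against 9530, 630, 8050, 2240 and 4010 in thoracic green epidermis. In V-shaped epidermis it was 9470, 1080, 33000, 32400 and 16700, against 7150, 702, 3030, 1780 and 2670 in abdominal green epidermis. Eyespot and thoracic green thus had nearly the same signal at the intermolt and 1 h, with log2 ratios of -0.22 and -0.01, and differed by 2.19 to 3.38 from 4 h on. Averaged over its probes, V-shaped lay above abdominal green on each array, by 0.40 and 0.62 at the first 2 stages and by 2.64 to 4.18 later. At 1 h the 3 probes, all well above background in both regions, differed in sign and ranged from -0.548 to 1.235.

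The mean log2 ratio of yellow-h3 was 1.40 ± 1.16 in the mimetic pattern (SD, n = 6), 1.59 ± 1.62 for eyespot and 2.26 ± 1.69 for V-shaped (SD, n = 5 each), and 1.92 ± 1.60 in the cryptic pattern (SD, n = 10), 3.79-fold. The gene was higher in black on 6 of 6 mimetic arrays (exact sign-flip p = 0.03125) and higher in the marking on 8 of 10 cryptic arrays (exact p = 0.00781). In limma the cryptic difference passed, with an adjusted p of 0.014, while the mimetic (0.184), eyespot (0.174) and V-shaped (0.102) differences did not. The cryptic mean was 3.07 on slide 1 and 0.20 on slide 2, which held the intermolt and 1 h arrays. The mimetic mean was 2.64 on slide 1 and 0.78 on slide 2, and with the slide as a term it passed in limma (1.82, adjusted p = 0.00333). With the 2 cryptic arrays of a stage averaged, the cryptic call was lost, with an adjusted p of 0.108.

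The neighbouring gene yellow-h2 had the opposite sign in the cryptic pattern and the widest range of signal among the members. In eyespot epidermis its signal was 42 at the intermolt, 869 at 1 h, 25800 at 4 h, 1440 at 10 h and 336 at 13 h, against 42, 5500, 360000, 27700 and 5120 in thoracic green epidermis. In V-shaped epidermis it was 63.8, 459, 27900, 3330 and 644, against 40.9, 2760, 105000, 17900 and 3250 in abdominal green epidermis. All 4 cryptic regions peaked at 4 h, and from 1 h on the green region was the brighter one on all 8 arrays, by 6.33-fold to 19.2-fold beside the eyespot and by 3.75-fold to 6.00-fold beside the V-shaped mark. At the intermolt the signals were low in all of them, and over both probes the green side was not the higher one. On the eyespot array of that stage, the only probe well above background in both regions had 49.6 in eyespot and 63.9 in thoracic green. In thoracic green epidermis 1 of the 2 probes was not well above background at the intermolt, so the climb from that stage to 4 h has no exact fold.

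In the mimetic pattern the highest signals of yellow-h2 stayed below its cryptic peaks. Its signal was 11.4 at the intermolt, 36.8 at 0 h, 1050 at 4 h, 2750 at 8 h, 1860 at 11 h and 21.3 at 16 h in black epidermis, against 9.55, 28.5, 1280, 3540, 5310 and 11.4 in white epidermis, and at the intermolt and at 16 h neither region was well above background. The gene was higher in black on 3 arrays and lower on 3, and the array at 11 h differed most, with a signal 2.85-fold lower in black. Its mean log2 ratio of -0.11 ± 0.83 (SD, n = 6) did not pass (limma, adjusted p = 0.935), and without the 11 h array the sign turned, to 0.17.

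The cryptic mean log2 ratio of yellow-h2 was -2.33 ± 1.60 (SD, n = 10), 5.02-fold lower in the markings, with 8 of 10 arrays lower and an exact sign-flip p of 0.00781. It passed in limma with an adjusted p of 0.00264, and its mean was -3.11 on slide 1 and -1.15 on slide 2. For eyespot the mean was -2.93 ± 1.75 and for V-shaped -1.72 ± 1.34 (SD, n = 5 each), and in limma eyespot passed (adjusted p = 0.0114) and V-shaped did not (0.143). The eyespot call was lost without the 10 h (0.056) or the 13 h eyespot array (0.0507) in limma. The difference between the eyespot and V-shaped effects, -1.21, did not pass in limma (unadjusted p = 0.142, adjusted p = 0.932).

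**Figure D3:**
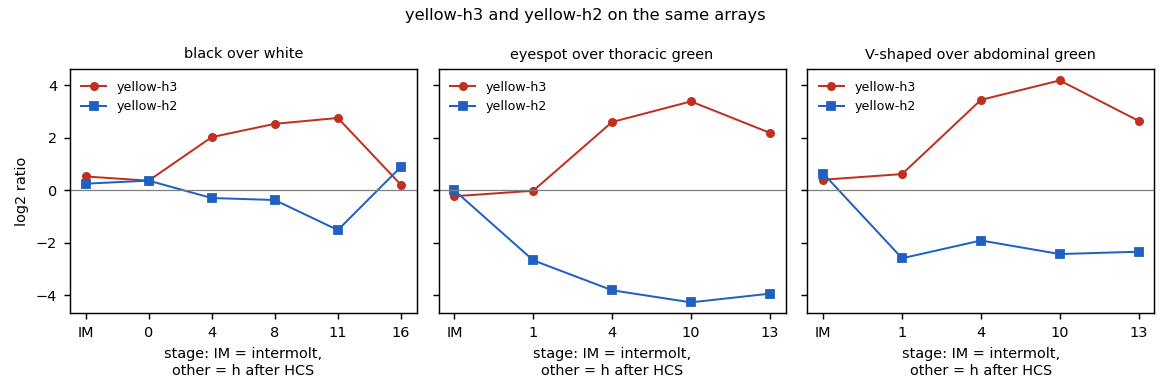
Log2 ratio of marking over pale epidermis for yellow-h3 (red circles) and yellow-h2 (blue squares) by stage, with a panel each for black over white, eyespot over thoracic green and V-shaped over abdominal green and 1 array a stage (IM, intermolt; other stages in h after head capsule slippage, HCS). The lines start close together at the intermolt, where yellow-h2 was low, and in the mimetic panel not well above background. They are furthest apart at 10 h in the eyespot panel, with 3.38 for yellow-h3 and -4.26 for yellow-h2, at 10 h in the V-shaped panel and at 11 h in the mimetic panel.

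Set against each other on the same array, yellow-h3 and yellow-h2 diverged during the molt. In the eyespot comparison the difference of their log2 ratios was -0.22 at the intermolt, 2.65 at 1 h, 6.40 at 4 h, 7.65 at 10 h and 6.12 at 13 h, and in the V-shaped comparison it was -0.24, 3.21, 5.35, 6.61 and 4.98. The largest value is a 200.5-fold difference between the ratios of the genes. The mimetic differences were 0.28 at the intermolt, -0.00 at 0 h, 2.32 at 4 h, 2.90 at 8 h, 4.27 at 11 h and -0.68 at 16 h. The values thus opened up after the intermolt in the cryptic molt and after 0 h in the mimetic molt, and lay near 0 again at 16 h, where yellow-h2 was not well above background.

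The mean difference was 4.25 ± 2.80 over the cryptic arrays (SD, n = 10), above 0 on 8 of 10, with an exact sign-flip p of 0.00781. Over the mimetic arrays it was 1.51 ± 1.94 (SD, n = 6), above 0 on 4 of 6, with an exact p of 0.188. These belong to 8 such tests of gene pairs and stand unadjusted, beside 24 sign-flip tests of single members. With the cryptic arrays of a stage averaged, n falls to 5 stages and the exact p of the cryptic difference was 0.125.

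The gene yellow-e is known from the silkworm Bombyx mori, where a mutation of it changes the colour of the larval head and tail. Its signal in eyespot epidermis was 369 at the intermolt, 2970 at 1 h, 23100 at 4 h, 2990 at 10 h and 2860 at 13 h, against 269, 18600, 65400, 3880 and 2950 in thoracic green epidermis. In V-shaped epidermis it was 319, 6680, 15400, 2460 and 1920, against 612, 15700, 18000, 3270 and 2180 in abdominal green epidermis. As for yellow-h2, all cryptic regions were brightest at 4 h, but the difference between marking and green was largest at 1 h, 6.26-fold for eyespot and 2.35-fold for V-shaped, and had nearly closed at 13 h.

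In black epidermis the yellow-e signal was 74.8 at the intermolt, 205 at 0 h, 3240 at 4 h, 9080 at 8 h, 14700 at 11 h and 173 at 16 h, against 76.7, 137, 4600, 7600, 9100 and 221 in white epidermis. Black was the higher region on 3 arrays and the lower one on 3. The mean log2 ratio of 0.11 ± 0.49 (SD, n = 6) did not pass in limma (adjusted p = 0.899), and without the 11 h array its sign turned, to -0.01.

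The cryptic mean log2 ratio of yellow-e was -0.71 ± 0.90 (SD, n = 10), with 9 of 10 arrays lower in the marking (exact sign-flip p = 0.0254) and an adjusted p of 0.0678 in limma, so it was the member that did not pass. It passed in limma without the eyespot array at the intermolt (-0.87, adjusted p = 0.0267), the only cryptic array on which the marking was higher, and with the slide as a term (-0.77, 0.0426). The within-slide means were -0.46 on slide 1 and -1.09 on slide 2. For eyespot alone the mean was -0.82 ± 1.25 (adjusted p = 0.196) and for V-shaped -0.60 ± 0.47 (0.411, limma, n = 5 each). Without the eyespot array at 1 h the eyespot mean was -0.37, and the exact p of the cryptic mean was 0.0508 without that array, the eyespot array at 4 h or the V-shaped array at the intermolt or at 1 h.

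**Figure D4:**
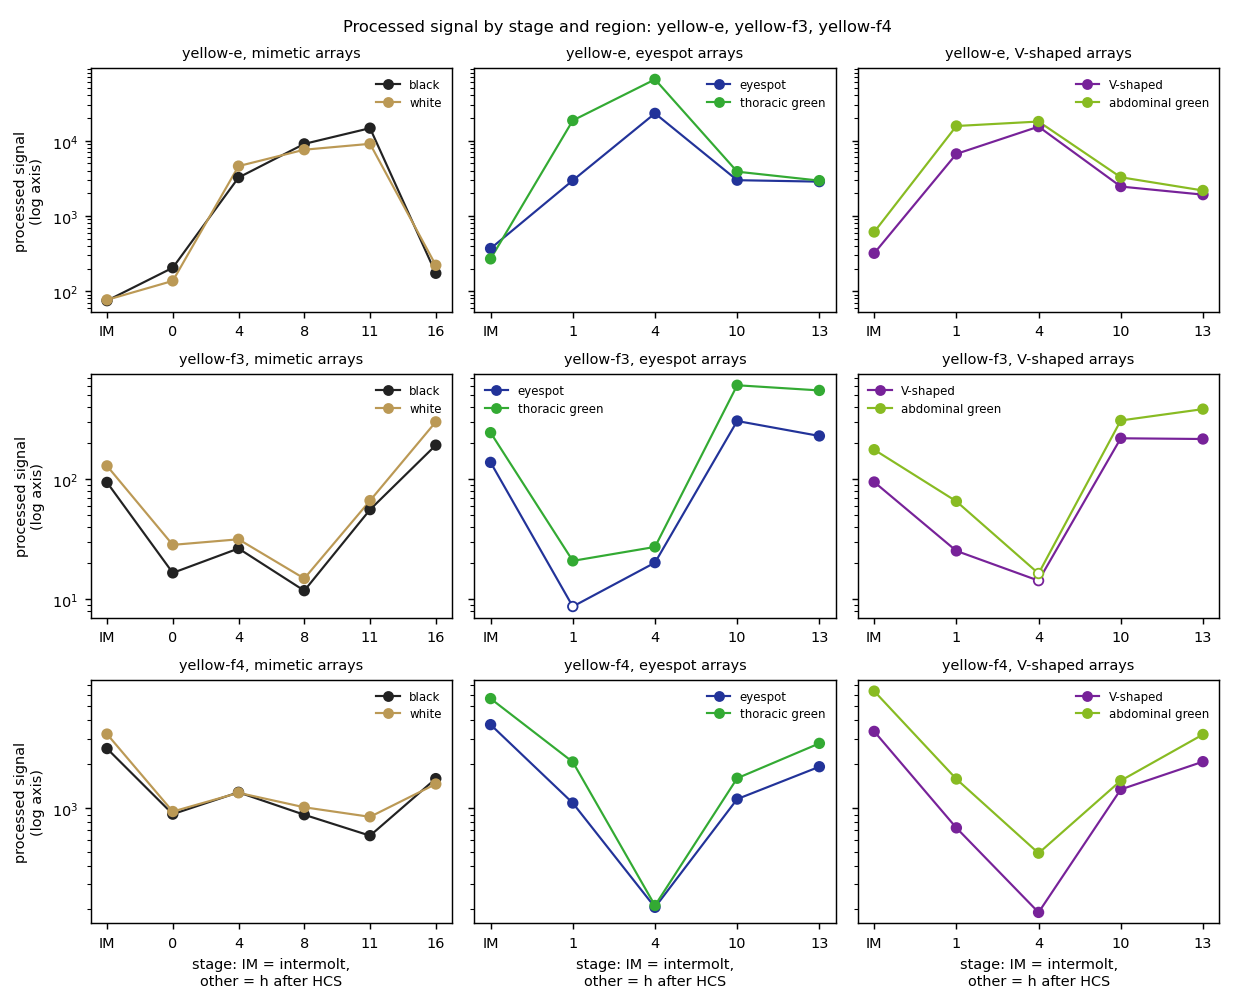
Processed signal (log10 axis) of yellow-e, yellow-f3 and yellow-f4 at each stage in the marking and in the pale region beside it, with 1 array a stage; hollow points were not well above background, and yellow-f3 is drawn over all 5 probes. The course of yellow-e peaks at 4 h in the cryptic molt and at 11 h in the mimetic molt, while yellow-f4 has its lowest cryptic signals at 4 h.

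In Drosophila melanogaster, yellow-f is an enzyme that converts dopachrome, a step on the way to melanin, and P. xuthus carries several genes of this branch. Of these, yellow-f3 and yellow-f4 were both lower in the cryptic markings than in green. For yellow-f4 the signal in eyespot epidermis was 3740 at the intermolt, 1080 at 1 h, 207 at 4 h, 1150 at 10 h and 1920 at 13 h, against 5650, 2070, 213, 1600 and 2780 in thoracic green epidermis. In V-shaped epidermis it was 3360, 729, 191, 1340 and 2080, against 6360, 1580, 488, 1540 and 3200 in abdominal green epidermis.

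The course of yellow-f4 was thus opposite to that of yellow-h2 and yellow-e, with the highest signal at the intermolt and the lowest at 4 h in all 4 cryptic regions, and green was higher on each of the 10 arrays. The cryptic mean log2 ratio was -0.68 ± 0.41 (SD, n = 10), 1.60-fold lower in the markings, with an exact sign-flip p of 0.00195 and an adjusted p of 0.00174 in limma. Its within-slide means were -0.54 and -0.89 on slides 1 and 2. For V-shaped alone it was -0.84 ± 0.45 (limma, adjusted p = 0.0104), a call lost without the 4 h V-shaped array (-0.71, 0.0566), and for eyespot -0.52 ± 0.33 (limma, unadjusted p = 0.00274), which after adjustment did not pass. In the mimetic pattern yellow-f4 varied between 644 and 2560 in black and between 868 and 3220 in white epidermis, and the mean log2 ratio of -0.14 ± 0.21 (SD, n = 6) did not pass in limma (adjusted p = 0.598).

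The probes of yellow-f3 did not all give a signal. Probes 2 and 3 were well above background in 28 and 23 of the 32 samples and reached 61100 and 53700, while probes 1, 4 and 5 were so in 1, 5 and 4 samples and never exceeded 761. Over all 5 probes, yellow-f3 was lower in the marking on 10 of 10 cryptic arrays, with a mean log2 ratio of -0.85 ± 0.39 (SD, n = 10), an exact sign-flip p of 0.00195 and an adjusted p of 0.000284 in limma. This mean contains the ratios of the dim probes, and its within-slide values were -0.70 and -1.09 on slides 1 and 2.

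From probes 2 and 3 alone, chosen after their values were seen, the yellow-f3 signal in eyespot epidermis was 4650 at the intermolt, 13.9 at 1 h, 43.2 at 4 h, 15200 at 10 h and 13400 at 13 h, against 9630, 42.7, 36.8, 53300 and 54600 in thoracic green epidermis. In V-shaped epidermis it was 3740, 15.1, 17.9, 15200 and 15400, against 7360, 18.4, 19.4, 33700 and 55900 in abdominal green epidermis. The gene was thus high before and after the window in which yellow, yellow-h2 and yellow-e peaked, with signals of at most 43.2 at 1 and 4 h in all 4 cryptic regions.

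The mimetic course was alike, with 7380 in black and 14000 in white epidermis at 16 h, when yellow had faded, and with 18.5 in black and 28.4 in white epidermis at 8 h. On these probes the mean log2 ratio was -1.07 ± 0.79 over the cryptic arrays (SD, n = 10), with 9 of 10 lower and an exact sign-flip p of 0.00586, and -0.29 ± 0.71 over the mimetic arrays (SD, n = 6), with 4 of 6 lower and an exact p of 0.344. The cryptic count and p still include signals not well above background. These were eyespot at 1 h (13.9), abdominal green at 1 h (18.4), and V-shaped (17.9) and abdominal green (19.4) at 4 h.

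For eyespot the yellow-f3 mean over all probes was -0.95 ± 0.34 (limma, adjusted p = 0.00408) and for V-shaped -0.76 ± 0.44 (0.0227, n = 5 each). The V-shaped call of yellow-f3 was lost in limma without the V-shaped array at the intermolt (adjusted p = 0.057) or at 1 h (0.0947), with the median over its probes (0.252) and on probes 2 and 3 alone (-0.88, 0.183), and the eyespot call with spots not well above background left out (-1.08, 0.056). Both calls were lost with normexp and loess (eyespot 0.056, V-shaped 0.0858) and kept with normexp and median centring. In the mimetic pattern yellow-f3 was lower in black on 6 of 6 arrays over all probes, with a mean of -0.45 ± 0.21 (SD, n = 6), an exact p of 0.03125 and a limma adjusted p of 0.0839, but with spots not well above background left out the mean was -0.07 and the exact p 0.781. The difference between the log2 ratios of yellow-f3 and yellow-f4 on the same array was -0.17 ± 0.51 over the cryptic arrays (SD, n = 10; exact p = 0.312) and -0.31 ± 0.36 over the mimetic arrays (SD, n = 6; exact p = 0.125). With spots not well above background left out the cryptic difference was -0.65 and passed (exact p = 0.0195), as it did at -0.32 without the V-shaped array at 4 h (exact p = 0.00781), while with normexp and loess it was 0.12 (exact p = 0.434).

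**Figure D5:**
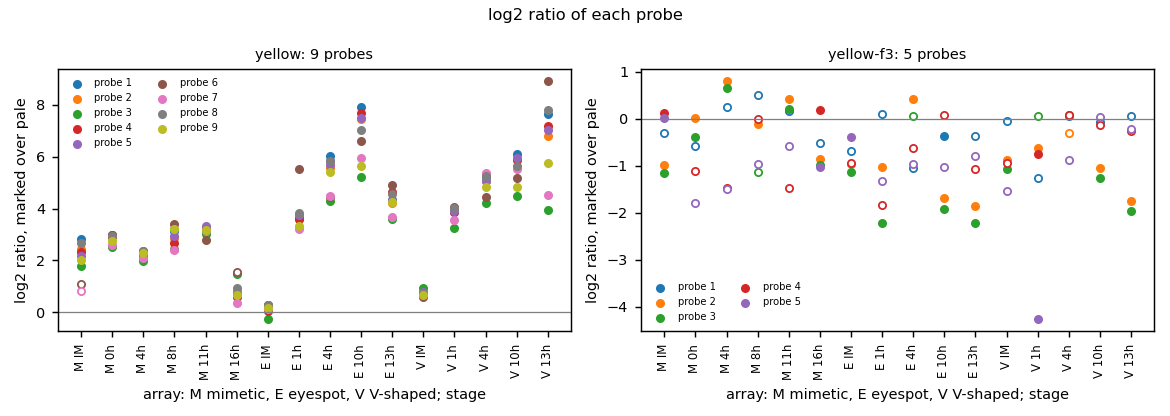
Log2 ratio of marking over pale epidermis on each array for the 9 probes of yellow and the 5 probes of yellow-f3; hollow points were not well above background in either channel, and 1 spot marked as an outlier is left out. The probes of yellow follow one another across the arrays, while most points of yellow-f3 probes 1, 4 and 5 are hollow.

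For the other genes, the probes of one gene mostly gave like ratios, though those of yellow-h3 differed in sign on the V-shaped array at 1 h. Pearson's r between the log2 ratios of 2 probes of a gene over the 16 arrays, taken over probes well above background in 16 or more samples, was 0.84 to 1.00 for yellow, 0.94 to 1.00 for yellow-h3, 0.99 for yellow-h2, 0.84 to 1.00 for yellow-e and 0.96 for yellow-f4. Each of the 9 yellow probes averaged between 1.90 and 2.56 in the mimetic and, with the outlier spot left out, between 3.32 and 4.58 in the cryptic pattern. Both yellow-h2 probes were negative in the cryptic pattern, at -2.20 and -2.45, and all 3 yellow-h3 probes positive, at 1.75 to 2.09. The points share arrays and stages, so these values are descriptions.

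By region, the mean log2 signal of yellow over stages was highest in eyespot, followed by V-shaped, black, white, thoracic green and abdominal green epidermis, with geometric means of 9900, 7660, 4090, 809, 593 and 380. For yellow-h3 the order was V-shaped, eyespot, black, white, thoracic green and abdominal green, with 11300, 10100, 9580, 3620, 3370 and 2350. For yellow-h2 it was thoracic green, abdominal green, V-shaped, eyespot, white and black, with 6520, 3690, 1120, 855, 205 and 191. So the 3 markings led for yellow and yellow-h3, and the 2 green regions led for yellow-h2. The black and white means cover other stages than the cryptic means, so in ranks across the patterns region and stage cannot be told apart. For none of the 6 members did regions next to each other in the order differ by more than the SD over stages of both, which ranged for yellow-h2 from 3.29 to 4.77 on the log2 scale. The same 2 green regions led for yellow-e (5180 in thoracic and 4150 in abdominal green), for yellow-f3 (136 and 117, over all 5 probes with the dim ones) and for yellow-f4 (1620 and 1890), and yellow-e was lowest in white (950) and black (1020). Levels were compared only within a gene, and the stage with the highest signal stayed the same in 35 of the 36 series of a gene in a region when the channels were scaled to a common 75th percentile, and in 34 when they were quantile-normalized.

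The difference between the cryptic and mimetic effects was asked of each member in the same limma model. It passed for 0 of 6 members, where 0.178% of all sequences passed, and 3 members had an unadjusted p under 0.05, as did 13.5% of all sequences. These were yellow-h2, at -2.22 ± 0.64 (SE; unadjusted p = 0.00337, adjusted p = 0.215), yellow-f4, at -0.54 ± 0.17 (SE; adjusted p = 0.243), and yellow-f3, at -0.40 ± 0.17 (SE; adjusted p = 0.320), while that of yellow was 1.86 ± 0.92 (SE; adjusted p = 0.387) and that of yellow-h3 0.52 ± 0.71 (SE; adjusted p = 0.786). The difference between the eyespot and V-shaped effects passed in limma for 0 of 6 members, none of which had an unadjusted p under 0.05, and for 0 of all 3380 sequences (0%), of which 177 had an unadjusted p under 0.05. In the 2 patterns instar, stages and body segments also differed.

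Of the other yellow genes that could be tied to probes, 0 of 3 passed in the mimetic, cryptic, eyespot or V-shaped comparison in limma. Of all sequences 2.13%, 10.6%, 3.08% and 1.48% passed in these, so 0 of 3 is no result about these genes. The gene yellow-c had mean log2 ratios of 0.13 ± 0.48 in the mimetic and -0.04 ± 0.34 in the cryptic pattern, and yellow-x had -0.17 ± 0.38 and 0.04 ± 0.34 (SD, n = 6 and 10). The signal of yellow-d was lower in eyespot than in thoracic green on 5 of 5 arrays, with a mean of -1.55 ± 1.24 (SD, n = 5; limma, adjusted p = 0.0594), and had a V-shaped mean of 0.45 ± 1.09 (SD, n = 5; 0.658). At 1 h these 2 comparisons of yellow-d were furthest apart, with 281 in eyespot against 3570 in thoracic green, and 2470 in V-shaped against 492 in abdominal green epidermis.

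Of the melanin genes tied to probes, 1 of 3 passed in limma in 1 of these comparisons, the mimetic one, where 2.13% of all sequences did. That gene was laccase2, whose product oxidizes catechols as cuticle is tanned. Its signal was 68.3, 2530, 31100, 39600, 37400 and 240 in black epidermis from the intermolt to 16 h, against 36.4, 1080, 9270, 10200, 8170 and 97 in white epidermis, higher in black on 6 of 6 arrays. Its mean log2 ratio was 1.56 ± 0.49 (SD, n = 6; adjusted p = 0.0361) in the mimetic and 0.72 ± 1.07 (SD, n = 10; 0.111) in the cryptic pattern. The maximum at 8 h in both regions was at the same stage as that of the probe mean of yellow, whose single probes differed in that stage.

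The gene ebony, whose product joins dopamine to beta-alanine for pale cuticle, gave signals near background at 4 of the 6 mimetic stages. On the cryptic arrays, eyespot at 4 h and thoracic green at the intermolt and 1 h also had no ebony signal well above background. The same held for both V-shaped and abdominal green at the intermolt and 1 h, so its widest ratios rest on bounds. With both regions well above background, it had 7580 in eyespot against 467 in thoracic green at 10 h. At 13 h it had 552 in V-shaped against 8390 in abdominal green. The cryptic mean, which pools these opposite signs, did not pass in limma (adjusted p = 0.892). Catecholamines up, a regulator of dopamine synthesis in Drosophila, stayed within -0.18 and 0.20 on all 16 arrays. Over the cryptic arrays 7 of the 11 muscle genes were higher and 4 lower in the markings, with a median mean log2 ratio of 0.00, and their summed signal lay at 229000 to 524000 in eyespot, against 279000 to 522000 in thoracic green, and at 383000 to 848000 in V-shaped, against 423000 to 860000 in abdominal green epidermis. All 4 cuticular protein genes averaged higher in the markings over the cryptic arrays, with a median of 0.58, and none passed, where 10.6% of all sequences did.

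Likeness between genes was described with Pearson's r of the mean log2 signal over the 32 samples and of the log2 ratio over the 16 arrays, among the 3120 sequences well above background in at least 16 samples. These points share arrays, slides and stages. Among the members, the levels of yellow-h2 and yellow-e were most alike (r = 0.91), followed by those of yellow and yellow-h3 (0.74), and yellow-f4 ran against yellow-e (-0.63) and yellow-h2 (-0.62). In ratios, yellow went with yellow-h3 (0.75) and against yellow-h2 (-0.84). Outside the lists, each member's 3 nearest sequences were looked up, and those with a gene number are named. Here r measures a like course over samples or arrays, not values of like size or sign. The level of yellow correlated most with that of Px-0011, an unknown secreted protein (0.73). Its ratio correlated with that of Px-0019, a putative carotenoid binding protein (0.85). The study lists Px-0019 as enriched in mimetic white and cryptic green, unlike yellow. For yellow-h3 these were Px-0258, scarface (0.81), in level, and Px-0165, ribosomal protein L27 (0.83), and Px-0223, an unknown secreted protein (0.78), in ratio. For yellow-h2 it was Px-4033, cinnabar, in ratio (0.88), for yellow-e the cuticular protein gene Px-0025 (PxutCPG11) in level (0.92), and for yellow-f4 the gene Px-0314, serine protease 7, in level (0.95).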

How the data were processed

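Epidermis of P. xuthus larvae was hybridised to 16 Agilent 2-colour arrays, giving 32 samples. The deposited files hold, for each spot, the processed signal of each channel, an intensity that Feature Extraction 9.5.3.1 (per the file headers) had corrected for background and for dye within each array, with flags for outlier, saturated and well-above-background spots. A deposited series table holds log10 ratios of Cy5 over Cy3 and served as an alternative. No genome build entered the measurements, and the RefSeq gene table of Pxut_1.1 was used only for the order of genes. Values of pooled probes were means of log2 over all probes of a sequence, with spots marked as outliers left out (220 of 139152, 1 of the 432 spots of members). No scaling between arrays was applied.

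The log2 ratios of 3380 sequences were fitted with limma 3.58.1 in R 4.3.3 (1 mean per comparison, all 16 arrays) and adjusted by the Benjamini-Hochberg method over all of them at 0.05. That makes 36 limma tests of members. Means over arrays were tested with two-sided exact sign-flip permutation tests in Python 3.11.15 (numpy 2.4.6, pandas 2.3.3, matplotlib 3.10.9), unadjusted. The script was tested on simulated data. The members, the lists and the tests were chosen with earlier results of these data known. Genes named are the 6 members, the other yellow and melanin genes that could be tied to probes, and, for each member, the 3 nearest sequences in level and in ratio. Tyrosine hydroxylase, dopa decarboxylase, tan, GTP cyclohydrolase I, black and the P. polytes probes of yellow were not analysed here. Over all sequences, eyespot and V-shaped arrays of a stage deviated together by r = 0.50, 0.36, 0.31, 0.04 and -0.19, and they were not paired by stage. For yellow-h3 minus yellow-h2, though, eyespot and V-shaped ran alike by stage, with -0.22 and -0.24 at the intermolt and 7.65 and 6.61 at 10 h. The exact p over 10 cryptic arrays treats arrays of a stage as independent, which these values do not bear out.

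The alternatives were a common 75th percentile, normexp (offset 50) with loess or median centring, the series table, other rules for spots, probes and arrays, slide or stage terms, and leaving out each array. A fit without probes well above background in under 16 samples was added after seeing the data.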

Additional observations from a re-analysis of the deposited data

Results flagged for a closer look

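Of 24 series of log2 ratios (6 members in the mimetic, eyespot, V-shaped and cryptic sets), 1 held an array far from the others, and chance alone marks about 1 in 20 such groups. On the V-shaped arrays, the yellow-h2 log2 ratio was 0.64 at the intermolt, while the other 4 arrays lay between -2.58 and -1.91. The gap to the nearest array was 0.79 of the whole range of the 5 arrays. At that stage yellow-h2 had a signal of 63.8 in V-shaped and 40.9 in abdominal green epidermis, well above background in both, and the eyespot array of the same stage had a ratio of 0.00.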

How the results depend on the processing

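Of 1769 values under alternatives, 1662 kept their direction and side of the threshold or, for counts, stayed within 1.5 times. Of the others, 56 no longer passed, 20 newly passed, 20 changed sign and 11 counts moved by more than 1.5 times. A sign-flip test of 5 arrays cannot go below 0.0625. The eyespot and V-shaped tests of that kind thus could not change side, and mimetic ones with an array left out could not pass. In the mimetic pattern limma called 1 member with normexp and median centring, with the series table, with each probe on its own and with the mimetic arrays fitted alone, and 2 with the slide as a term, which called 133 of all sequences. The eyespot and V-shaped counts were 0 with each comparison fitted alone, where only 4 and 1 of all sequences were called. The V-shaped count was 5 with normexp and median centring, which called 567 of all sequences (50 otherwise). Leaving out an array gave 1 to 4 members for eyespot, 1 to 3 for V-shaped, 5 to 6 for cryptic, and 0 in every such fit for mimetic and for both differences between effects. With stage as a replicate block (correlation 0.282) the counts were 0 mimetic, 5 cryptic, 3 eyespot and 3 V-shaped, so the block changed no count of members, while all cryptic calls numbered 166 under it, 37 with the arrays of a stage averaged (4 members) and 358 without. Normexp with median centring called 1076 sequences in the cryptic and 777 in the mimetic pattern, against 358 and 72. Leaving out an array gave 13 to 115 sequences in the mimetic, 211 to 407 in the cryptic, 40 to 122 in the eyespot and 15 to 124 in the V-shaped comparison.

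For yellow-h3 minus yellow-h2, the mimetic value was 1.67 and 1.98 with normexp (loess, median centring; exact p = 0.03125), and the cryptic value 4.25 with stages averaged no longer passed (exact p = 0.125). Leaving out an array gave 0.96 to 1.95 mimetic, 3.74 to 5.71 eyespot, 3.32 to 5.04 V-shaped and 3.87 to 4.75 cryptic. For yellow-f3 minus yellow-f4 the same gave -0.41 to -0.22, -0.49 to -0.36, -0.18 to 0.18 and -0.32 to -0.11 in that order. The V-shaped value turned to -0.18 and the cryptic value passed at -0.32 (exact p = 0.00781) without the V-shaped array at 4 h. With dim spots left out it was 0.072 mimetic, -0.75 V-shaped and -0.65 cryptic, which passed (exact p = 0.0195), with normexp and loess 0.019 eyespot and 0.12 cryptic, with median centring 0.018 cryptic, and with bright probes only -0.035 V-shaped. The cause was not tested.

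Other signs that turned belong to values that did not pass. The eyespot minus V-shaped effect of yellow was 0.026 with normexp and loess, 0.022 and 0.30 without the V-shaped arrays at 10 and 13 h and 0.70 without the eyespot array at the intermolt, in a range of -1.17 to 0.70. That of yellow-e was 0.23 without the eyespot array at 1 h, in a range of -0.55 to 0.23, and that of yellow-f3 0.00031, 0.083 and 0.39 with normexp and loess, median centring and dim spots left out. The cryptic minus mimetic effect of yellow-h3 was -0.15 with the slide as a term. Without the mimetic 11 h array, yellow-e was -0.011 (range -0.011 to 0.23) and yellow-h2 0.17 (range -0.31 to 0.17) in the limma fit and over the arrays. The number of arrays limits the precision, and a signal not well above background gives a bound only.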
